A study of Mus musculus with 6 samples.

Results

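The enzymes that write and erase DNA methylation were followed through CRISPR activation of mouse tail-tip fibroblasts, a procedure meant to turn them into cardiac progenitors. The set holds 8 genes, Dnmt1, Uhrf1, Dnmt3a, Dnmt3b, Dnmt3l, Tet1, Tet2 and Tet3, each found by its symbol as 1 of the 49315 Ensembl genes in the deposited count table. Polyadenylated RNA was sequenced in 6 libraries, all labelled wild type and drawn from tail tip skin. The fibroblast libraries (day 0, n = 2) had received control lentiviral vectors (spelled negetive in the labels). The early libraries (day 7, n = 2) had received vectors of SAM, a CRISPR activation system that recruits transcriptional activators to chosen promoters with a Cas9 that cannot cut; replicate 2 is described as partially reprogrammed. The late libraries (day 22, n = 2) had received the same kind of vectors and came from isolated colonies, described as induced cardiac progenitors. Strain, age, the targeted genes and whether colonies were pooled are not stated in the sources used here.

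In mammals most DNA methylation sits on the cytosine of CpG pairs, and it has to be copied each time the DNA is replicated. UHRF1 recognises hemimethylated DNA behind the replication fork and recruits DNMT1, the maintenance methyltransferase, while DNMT3A and DNMT3B set new methylation and DNMT3L, which has no catalytic activity, stimulates them. TET1, TET2 and TET3 oxidise methylcytosine with iron and 2-oxoglutarate, which opens the way to its removal, and methylation set in the somatic cell is known as a barrier in reprogramming.

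Total counts ran from 20172874 to 40122999 per library, and 3 counts, taken here as the floor of detection, corresponded to 0.0842 to 0.142 CPM, the count scaled to the size of the library. Late replicate 2 stood apart. The 8 cardiomyocyte markers summed to 48339 CPM there, to 74.8 CPM in the other late library and to 15.5 to 126 CPM in the fibroblast and early libraries, and mitochondrial transcripts made up 10.3% of its counts, against 1.48% to 2.16% elsewhere. That library also held the 3 erythroid markers at 921 CPM and the 6 endothelial markers at 648 CPM, against at most 2.56 and 23.1 CPM in the others. The 3 adipocyte markers were at 32.01 CPM in it and at most 0.292 CPM elsewhere. Its labels give it as isolated colonies like late replicate 1; whether it also holds RNA of heart tissue was not tested, and every late mean includes it. In log2 CPM over the genes tested, late replicate 1 correlated at 0.945 and 0.922 with the early libraries and at 0.883 with late replicate 2. The early libraries correlated with each other at 0.939. The 6 leukocyte markers summed to 239 and 1033 CPM in the fibroblast libraries, 4.28 and 10.7 CPM in the early ones and 4.002 and 101 CPM in the late ones, and the 4 keratinocyte markers to 3.74 to 10.7 CPM. The 5 pluripotency markers summed to at most 0.579 CPM in fibroblast and early libraries and to 4.38 and 17.2 CPM in late ones. Their median was at most 0.134 CPM in fibroblast and early libraries and 0.208 and 0.225 CPM in late ones. Fibroblast markers were present in every library at a sum of 2701 to 12696 CPM, but the median of the 8 markers was 27.6 CPM in early replicate 1, against 146 to 647 CPM in the other 5 libraries. Lum, a proteoglycan of connective tissue, had no counts in early replicate 1. The libraries are of bulk RNA, so a change in the share of some cells and a change in the RNA per cell cannot be told apart. The labels do not say whether replicates were separate cultures or animals, and p-values therefore measure only the spread between these libraries.

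None of the 8 genes passed the test in any of the 3 comparisons, at a Benjamini-Hochberg adjusted p under 0.05 over all 16688 genes tested with the quasi-likelihood test of edgeR. That test called 1.53% of all genes in early cells against fibroblasts, 1.42% in late cells against fibroblasts and 0% in late against early cells. All 8 passed the filter on low counts. The levels of the maintenance pair lay above fibroblasts in both groups with activation vectors. Dnmt3a, Dnmt3b, Tet1 and Tet3 were highest in the late libraries, Tet2 overlapped between all groups, and Dnmt3l was lower in both groups with activation vectors than in fibroblasts.

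**Figure D1:**
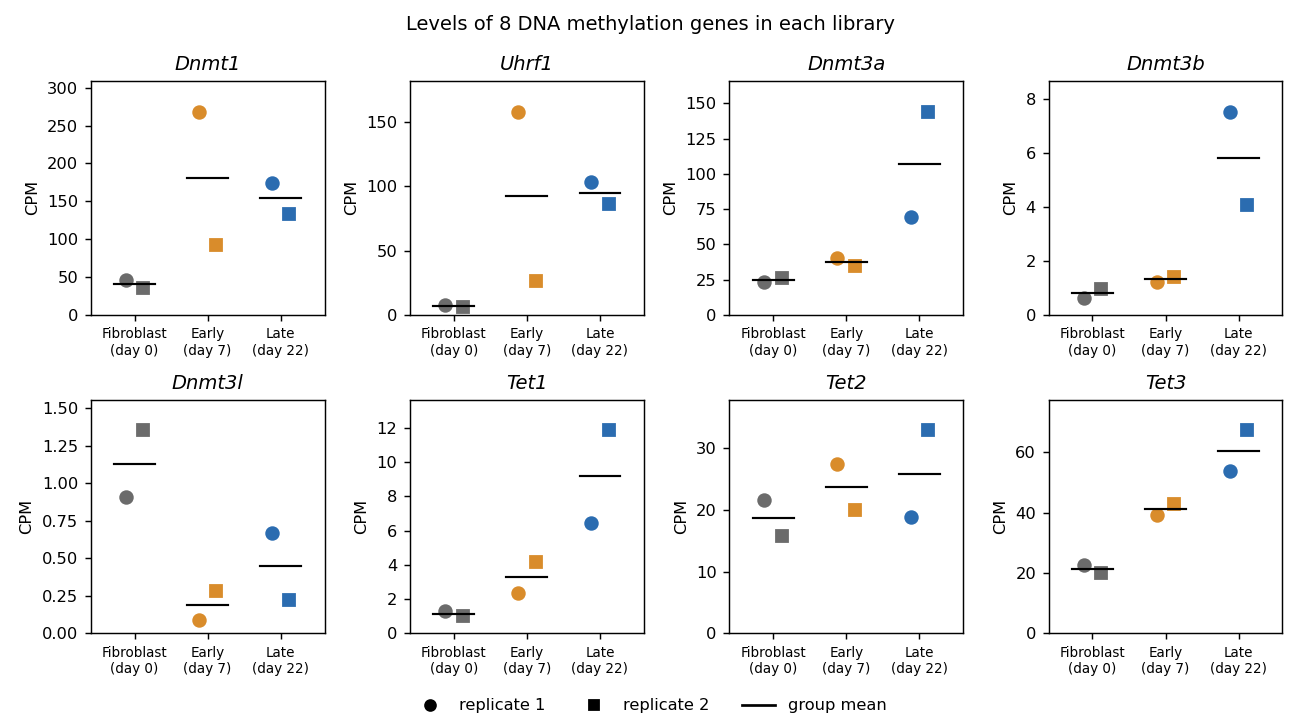
Levels of the 8 genes in each library, in CPM on a linear axis starting at 0, for fibroblast, early and late libraries; circles are replicate 1, squares replicate 2, and the bar is the mean of the group. The early circle of Uhrf1 stands at 158 CPM and the early square at 26.1 CPM, while the late points of Tet3, 53.7 and 67.5 CPM, lie above both early points.

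Dnmt1, the maintenance methyltransferase (ENSMUSG00000004099, chromosome 9, 20907209 to 20959888, minus strand, GRCm38), was at 46.5 and 35.9 CPM in the fibroblast libraries, 269 and 92.7 CPM in the early ones and 175 and 134 CPM in the late ones. All 4 libraries with activation vectors thus lay above both fibroblast libraries, and the early libraries differed from each other 2.90-fold. Uhrf1, its recruiter (ENSMUSG00000001228, chromosome 17, 56303321 to 56323486, plus strand), was at 7.45 and 6.18 CPM in fibroblasts, 158 and 26.1 CPM in early cells and 103 and 85.8 CPM in late cells. The order of the libraries was the same as for Dnmt1, with early replicate 1 highest, then late replicate 1, late replicate 2, early replicate 2 and the fibroblasts.

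The promoters of both genes are shown because these genes share that order of libraries, together with that of Tet3, whose adjusted p came nearest to the threshold. Each run is the 250 bases before a transcription start, 5′ to 3′ on the strand of the gene, from the RefSeq promoter table of GRCm38.p6. Capitals mark CCAAT, the box bound by NF-Y, read on either strand.
Dnmt1, chr9:20952980-20953229, minus strand: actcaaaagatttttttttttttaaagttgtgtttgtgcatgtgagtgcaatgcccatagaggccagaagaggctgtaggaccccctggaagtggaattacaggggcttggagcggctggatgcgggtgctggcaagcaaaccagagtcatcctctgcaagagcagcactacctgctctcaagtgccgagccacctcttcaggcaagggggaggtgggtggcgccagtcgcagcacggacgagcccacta
Uhrf1, chr17:56304063-56304312, plus strand: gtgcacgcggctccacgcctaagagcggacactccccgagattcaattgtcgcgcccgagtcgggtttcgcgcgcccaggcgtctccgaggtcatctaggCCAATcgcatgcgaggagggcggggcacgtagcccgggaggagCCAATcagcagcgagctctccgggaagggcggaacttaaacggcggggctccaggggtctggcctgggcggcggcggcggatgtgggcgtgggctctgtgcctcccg
Tet3, chr6:83441679-83441928, minus strand: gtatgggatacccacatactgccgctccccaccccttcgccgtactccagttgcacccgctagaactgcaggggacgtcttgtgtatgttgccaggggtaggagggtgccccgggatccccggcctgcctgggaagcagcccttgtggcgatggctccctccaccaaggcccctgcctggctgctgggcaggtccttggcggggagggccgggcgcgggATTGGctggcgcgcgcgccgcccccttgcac
All 8 genes had entries in the table, with 15 windows in all, and the windows shown hold no annotated exon. CCAAT occurred 2 times in the Uhrf1 window, 150 and 107 bases before the start, and 1 time in the Tet3 window, on the opposite strand. The Dnmt1 window shown has none of it. Of the other Dnmt1 windows, 1 has 4 matches and 1 has 3, and the other Uhrf1 window has 1. No window of Dnmt3a, Dnmt3b, Dnmt3l, Tet1 or Tet2 had a match, and 33.8% of the 32851 windows in the table hold one. Other motifs were also searched on both strands. The E2F sequences TTTCCCGC and TTTGGCGC were in none of the 15 windows and in 1.3% of all windows. The GC box GGGCGG was found in 11 of the 15 windows and in 32.7% of all windows, and the cell cycle element TTTGAA in 2 of the 15 and in 16.0% of all. CpG pairs, the substrate of these enzymes, numbered 7 in the Dnmt1 window shown, 30 in that of Uhrf1 and 17 in that of Tet3, against a median of 6 over all windows. The other Dnmt1 windows held 2 and 26, and the other Uhrf1 window 10. The Tet2 window held 51, more than 99.9% of all windows, while the 3 Dnmt3l windows held 3 to 5. Gene counts do not show which start was used.

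In early cells against fibroblasts, Uhrf1 differed by 3.76 ± 0.87 on the log2 scale (SE; adjusted p = 0.0765 with edgeR), averaging 92.1 ± 93.3 CPM in early libraries and 6.82 ± 0.90 CPM in fibroblast libraries (SD, n = 2 each). Dnmt1 had a log2 fold change of 2.13 ± 0.54 (adjusted p = 0.0821), averaging 181 ± 124 CPM in early libraries and 41.2 ± 7.46 CPM in fibroblast libraries. Without early replicate 1 the log2 fold changes were 1.94 for Uhrf1 and 1.17 for Dnmt1. Without early replicate 2 they were 4.57 and 2.74. Each of these fits holds a single early library. Early replicate 1, which has the highest values of both genes, is also the library with the low median of fibroblast markers. Early replicate 2 is the library described as partially reprogrammed. The part of either in these values was not tested.

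The summed level of genes of DNA replication and division had the same order of libraries as the maintenance pair. Of 18 listed S phase and cell cycle genes, 17 had a fitted value above fibroblasts in early cells, with a median log2 fold change of 2.69, against 0.00 over all genes tested, and 0 of the 18 passed the test. In late cells it was again 17 of 18, with a median of 2.38 and 0 called. Over all genes, the test called 1.53% in early cells and 1.42% in late cells. The summed level of the 18 was 393 and 382 CPM in fibroblast libraries, 3400 and 788 CPM in early ones and 1906 and 1703 CPM in late ones. Early replicate 1 was highest and the fibroblasts lowest. Mcm6, a subunit of the replicative helicase, was at 239 and 74.5 CPM in the early libraries against 19.104 and 15.1 CPM in fibroblasts (log2 fold change 3.20 ± 0.60, adjusted p = 0.0621). Top2a, which untangles DNA in cells that divide, had 613 and 124 CPM in the early libraries and 22.6 and 15.9 CPM in fibroblasts (adjusted p = 0.0642). In late cells Mcm6 (3.14) and Mcm3 (3.73), of the same helicase, had the smallest p of the list (edgeR adjusted p = 0.0617 and 0.0646). E2f1, the gene of the list below fibroblasts, had -0.52 in early cells and -1.14 in late cells (adjusted p = 0.199 and 0.0646). In late against early cells E2f1 (-0.62) and Cdk1 (-0.39) had the smallest p (0.461 and 0.863). Whether the share of dividing cells has a part in the values of Dnmt1 and Uhrf1 was not tested.

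Among the erasers, Tet3 differed most evenly from fibroblasts at the early stage. Tet3 (ENSMUSG00000034832, chromosome 6, 83362373 to 83459084, minus strand) was at 22.6 and 20.1 CPM in fibroblasts, 39.3 and 42.9 CPM in early cells and 53.7 and 67.5 CPM in late cells. The libraries of the 3 groups did not overlap, and each later group was higher. The early log2 fold change was 0.94 ± 0.22 (edgeR adjusted p = 0.0767), lying between 0.86 and 1.02 under every alternative setting tried. Tet1 (ENSMUSG00000047146, chromosome 10, 62804570 to 62908996, minus strand), known from embryonic stem cells and germ cells, was scarce, at 1.31 and 1.0 CPM in fibroblasts, 2.36 and 4.16 CPM in early cells and 6.46 and 11.9 CPM in late cells. Its libraries were also ordered by stage without overlap, as were those of Dnmt3a and Dnmt3b. The share of all genes with that order was not counted. The early log2 fold change of Tet1 was 1.5 ± 0.59 (adjusted p = 0.164).

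Tet2 (ENSMUSG00000040943, chromosome 3, 133463679 to 133545139, minus strand), the family member best known from blood cells, was at 21.6 and 15.8 CPM in fibroblasts, 27.4 and 20.02 CPM in early cells and 18.8 and 32.9 CPM in late cells. All 3 groups overlapped. Its log2 fold change was 0.34 ± 0.38 in early cells and 0.47 ± 0.38 in late cells against fibroblasts (edgeR adjusted p = 0.588 and 0.419), and 0.13 ± 0.38 in late against early cells (0.948). Without late replicate 2 the value for late cells against fibroblasts was 0.01. Leukocyte markers were highest in the fibroblast libraries, and their part in the Tet2 values was not tested.

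The de novo enzymes had their highest levels in the late libraries. Dnmt3a (ENSMUSG00000020661, chromosome 12, 3806007 to 3914443, plus strand) was at 23.0 and 26.4 CPM in fibroblasts, 40.6 and 34.9 CPM in early cells and 69.8 and 144 CPM in late cells. The groups did not overlap, and the late libraries lay farthest apart from each other, by 2.07-fold. Its early log2 fold change was 0.61 ± 0.38 (edgeR adjusted p = 0.326). Dnmt3b (ENSMUSG00000027478, chromosome 2, 153649450 to 153687730, plus strand), a gene characteristic of pluripotent and early embryonic cells, was at 0.638 and 0.971 CPM in fibroblasts, 1.203 and 1.42 CPM in early cells and 7.54 and 4.07 CPM in late cells. Both late libraries stood above all 4 others, which held between 19 and 33 reads of the gene each. Its early log2 fold change was 0.70 ± 0.58 (adjusted p = 0.464).

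Dnmt3l, the regulatory cofactor used in germ cells (ENSMUSG00000000730, chromosome 10, 78041947 to 78063622, plus strand), ran the other way. It had 27 and 46 reads in fibroblast libraries, 2 and 6 in early ones and 16 and 8 in late ones, which is 0.907 and 1.35 CPM in fibroblasts, 0.0891 and 0.284 CPM in early cells and 0.667 and 0.225 CPM in late cells. Both fibroblast libraries lay above the other 4, and 1 early library was under the floor of 3 counts. The early log2 fold change was -2.58 ± 0.87 (edgeR adjusted p = 0.128). It was -1.97 without early replicate 1 and -3.57 without early replicate 2. In the annotation, 67 of its exonic bases overlap Aire on the opposite strand, which had 0 to 3 reads in each library. Opposite-strand exons also overlap Dnmt3a by 133 bases (Dnmt3aos, 0 to 4 reads) and Tet2 by 43 (Gm42567, 0 to 3 reads).

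Of the 8 genes, 6 had early libraries wholly above the fibroblast libraries and 1 wholly below, where 32.3% and 34.4% of all genes tested did so. None passed the edgeR test, which called 1.53% of all genes, and 5 had an unadjusted p under 0.05, as did 29.8% of all genes. DESeq2, run as an alternative, called 3 of the 8, Dnmt1, Uhrf1 and Tet3, all higher (adjusted p = 0.00451, 0.000159 and 0.00283), against 22.5% of the genes it tested. The median log2 fold change of the 8 was 0.82 and that of all genes 0.00.

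**Figure D2:**
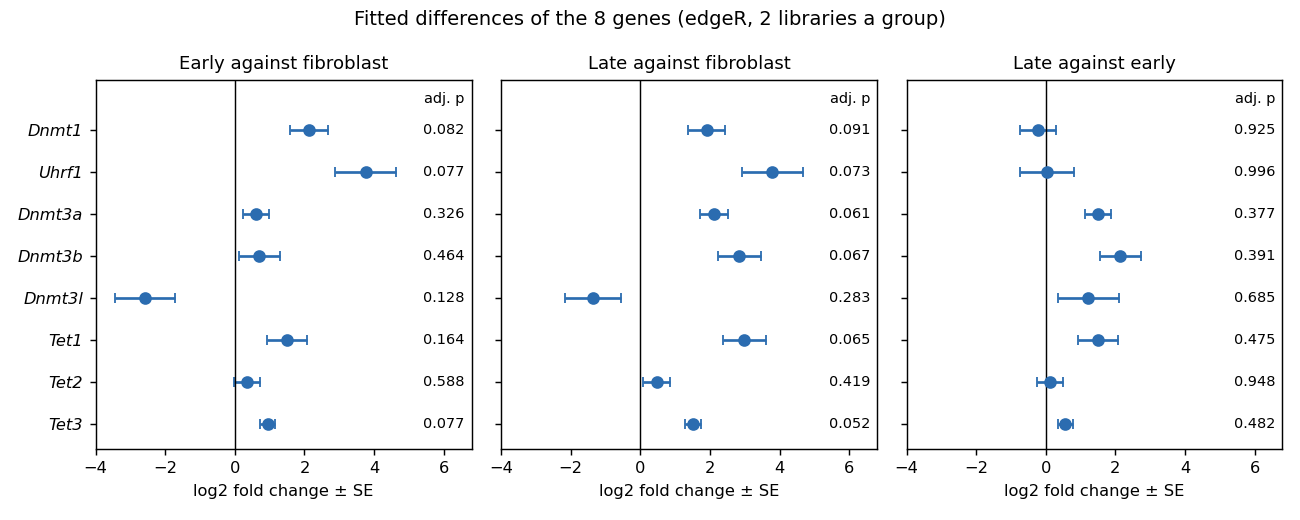
Log2 fold change of each gene with its standard error in the 3 comparisons, from edgeR with 2 libraries in each group; a positive value is higher in the group named first, and the adjusted p stands at the right of each row. Uhrf1 has the largest early value, 3.76, and the smallest adjusted p of any is that of Tet3 in late cells against fibroblasts, 0.052.

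In late cells against fibroblasts, the maintenance pair again lay above, and so did Dnmt3a, Dnmt3b, Tet1 and Tet3. Tet3 had a log2 fold change of 1.5 ± 0.22 (edgeR adjusted p = 0.0519), the nearest of the 8 to the threshold and rank 268 by p among 16688 genes. Dnmt3a had 2.12 ± 0.39 (adjusted p = 0.0608), with 107 ± 52.7 CPM in late libraries and 24.7 ± 2.42 CPM in fibroblast libraries (SD, n = 2 each). Tet1 had 2.99 ± 0.61 (adjusted p = 0.0654) and Dnmt3b 2.84 ± 0.61 (0.0671), both on less than 12 CPM. Uhrf1 had 3.80 ± 0.87 (0.0734) and Dnmt1 1.90 ± 0.54 (0.0906). Dnmt3l had -1.36 ± 0.80 (0.283).

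Without late replicate 2, the log2 fold changes in late cells against fibroblasts were 1.49 for Dnmt3a, 2.47 for Tet1 and 1.32 for Tet3. They were 3.21 for Dnmt3b, 3.92 for Uhrf1 and 2.08 for Dnmt1. Dnmt3l was then at -0.76, and at -2.40 without late replicate 1. Without late replicate 1, which leaves late replicate 2 alone in its group, Dnmt3a was at 2.46 and Tet3 at 1.57. By library, Dnmt3a, Tet1, Tet2 and Tet3 were higher in the late library rich in cardiomyocyte markers, and Dnmt3b, Dnmt3l, Dnmt1 and Uhrf1 in the other. The part of heart muscle, blood, vessel and fat cells in these values was not tested. Early replicates 1 and 2 are not in this comparison but share its estimate of spread. Leaving out either gave 3.77 for Uhrf1 and 1.47 for Tet3.

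Late libraries lay wholly above fibroblast libraries for 6 of the 8 genes and wholly below for 1, where 35.7% and 32.9% of all genes did so. The edgeR test called 0 of 8 and 1.42% of all genes, and 6 of 8 had an unadjusted p under 0.05, as did 32.5% of all genes. DESeq2 called 6 of the 8, all but Tet2 and Dnmt3l, with adjusted p from 3.51e-07 for Tet3 to 0.0123 for Dnmt1, against 26.0% of the genes it tested. The median log2 fold change of the 8 was 2.01, against 0.11 for all genes. This comparison shares its fibroblast libraries with the early one.

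In late cells against early cells, both late libraries of Dnmt3a and Dnmt3b lay above both early ones, while those of Dnmt1 and Uhrf1 overlapped with them. Dnmt3a had a log2 fold change of 1.5 ± 0.38 (edgeR adjusted p = 0.377) and Dnmt3b of 2.14 ± 0.59 (0.391), while Dnmt1 had -0.23 ± 0.52 (0.925) and Uhrf1 0.04 ± 0.78 (0.996). Tet1 had 1.49 ± 0.58 (0.475), Tet3 0.56 ± 0.22 (0.482) and Dnmt3l 1.22 ± 0.88 (0.685). Some of these values depended on single libraries, and the difference between the de novo and maintenance genes was not tested. Over the alternative settings Dnmt3b ran from 1.52 to 2.52, Tet1 from 0.98 to 1.87 and Tet3 from 0.38 to 0.60. Without early replicate 1, Dnmt1 turned to 0.71 and Uhrf1 was at 1.83, beside 1.57 for Dnmt3a. Uhrf1 turned to -0.80 without early replicate 2 and -0.23 without late replicate 1. Dnmt3a was at 0.89 without late replicate 2 and at 1.82 without late replicate 1, which leaves late replicate 2 alone in its group. Dnmt3l was at 0.17 without late replicate 1 and at 2.21 without early replicate 2.

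Dnmt3a, Dnmt3b, Tet1 and Tet3, 4 of the 8, had both late libraries above both early ones, and none of the 8 had both below, against 16.1% and 17.6% of all genes. The edgeR test called 0% of the 16688 genes in this comparison, with 1709 at an unadjusted p under 0.05 and 1108 called by DESeq2, and 4 of 8 genes had an unadjusted p under 0.05, as did 10.2% of all genes. DESeq2 called Dnmt3a and Dnmt3b (adjusted p = 0.0243 and 0.00962), both higher, against 6.55% of the genes it tested. The median log2 fold change of the 8 was 0.89, against -0.03 for all genes.

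Levels of different genes were set side by side per kilobase of exon, as RPKM with the merged exons of GENCODE M21. These came to 7377 bases for Dnmt1, 4259 for Uhrf1, 16642 for Dnmt3a, 5106 for Dnmt3b and 2988 for Dnmt3l. For the TETs they came to 15457 to 16870 bases. Where the transcripts in use are shorter than the merged exons, RPKM is too low, and the counts do not show which are used. In fibroblasts Dnmt1 led at 5.58 ± 1.01 RPKM, followed by Uhrf1 at 1.60 ± 0.21, Dnmt3a at 1.48 ± 0.15, Tet3 at 1.28 ± 0.10 and Tet2 at 1.11 ± 0.25 RPKM (SD, n = 2). Dnmt3l at 0.378 ± 0.106, Dnmt3b at 0.158 ± 0.046 and Tet1 at 0.0747 ± 0.0141 RPKM closed the order. Uhrf1 and Dnmt3a overlapped in their library values, as did Tet3 and Tet2.

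In early cells Dnmt1 at 24.5 ± 16.9 and Uhrf1 at 21.6 ± 21.9 RPKM overlapped, as did Tet3 at 2.46 ± 0.15 and Dnmt3a at 2.27 ± 0.24 RPKM. Tet2 followed at 1.41 ± 0.31 RPKM. Dnmt3b at 0.257 ± 0.030 and Tet1 at 0.211 ± 0.083 RPKM overlapped, and Dnmt3l was last at 0.0624 ± 0.0461 RPKM. In late cells Uhrf1 at 22.2 ± 2.92 and Dnmt1 at 20.9 ± 3.91 RPKM overlapped at the top. Dnmt3a at 6.43 ± 3.17 and Tet3 at 3.63 ± 0.58 RPKM came next without overlap between them. Tet2 at 1.53 ± 0.59 and Dnmt3b at 1.14 ± 0.48 RPKM overlapped, above Tet1 at 0.593 ± 0.248 and Dnmt3l at 0.149 ± 0.105 RPKM.

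The ratio of Uhrf1 to Dnmt1 RPKM was 0.278 and 0.298 in fibroblasts, 1.02 and 0.487 in early cells and 1.03 and 1.11 in late cells. The maintenance pair took up 64.0% and 58.8% of the summed RPKM of the 8 genes in fibroblasts, 91.5% and 74.2% in early cells and 81.8% and 70.1% in late cells. The TETs together took 21.6% and 20.5% in fibroblasts, 5.14% and 16.0% in early cells and 8.11% and 12.4% in late cells, although their summed level was highest in the late libraries, at 4.75 and 6.76 RPKM. The ratio of Dnmt3b to Dnmt3a RPKM was 0.352 in late replicate 1 and between 0.0905 and 0.133 in the other 5 libraries, late replicate 2 included. Tet3 exceeded Tet2 in every library, with an RPKM ratio of 1.06 and 1.29 in fibroblasts, 1.45 and 2.16 in early cells and 2.88 and 2.07 in late cells.

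**Figure D3:**
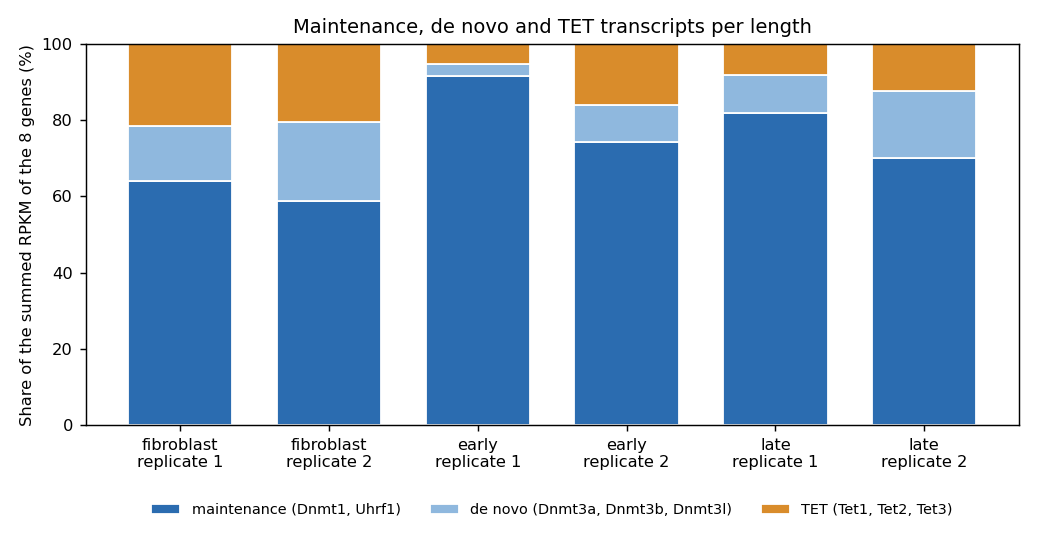
Share of the summed RPKM of the 8 genes, in percent, taken by the maintenance pair, the de novo group and the TETs in each library; RPKM is CPM per kilobase of merged exon. The maintenance share is 64.0% and 58.8% in the fibroblast libraries and between 70.1% and 91.5% in the other 4.

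Other genes of the pathway were taken from 8 lists drawn up from general knowledge. Of 16 partners of maintenance methylation and heterochromatin, 15 were tested. Zfp57, a zinc-finger protein that binds methylated imprinting control regions, rose in early cells, at 35.01 and 22.2 CPM against 3.83 and 3.65 CPM in fibroblasts (log2 fold change 2.94 ± 0.41, edgeR adjusted p = 0.0468). In late cells it was at 24.5 and 15.0 CPM (2.40 ± 0.40, adjusted p = 0.0564). It was the only partner called in any comparison, where the test called 1.53% of all genes in early cells. The early call was lost without either fibroblast library (adjusted p = 0.265 and 0.298) and without early replicate 1 (0.131), at log2 fold changes from 2.58 to 2.96. Lig1, the ligase that seals replicated DNA, was at 177 and 36.0 CPM in early libraries and 94.6 and 91.4 CPM in late libraries, against 10.04 and 10.1 CPM in fibroblasts (adjusted p = 0.0740 early and 0.0758 late). Cdca7, a partner of the chromatin remodeler HELLS, was at 31.3 and 6.39 CPM and at 25.3 and 19.2 CPM in the same groups, against 1.81 and 1.06 CPM. The list had 13 of 15 fitted values above fibroblasts in early cells and 11 of 15 in late cells, with medians of 0.77 and 0.70 on the log2 scale. In late against early cells Ehmt2 (-0.33) and Zfp57 (-0.53) had the smallest p of the list (adjusted p = 0.652 and 0.678).

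Among TET partners and base excision repair genes, 0 of 15 passed in any comparison. Over all genes, 1.53% passed in early cells, 1.42% in late cells and 0% in late against early cells. Tdg, the glycosylase that removes the oxidation products of the TETs, was at 42.7 and 36.2 CPM in early libraries and 39.2 and 38.4 CPM in late libraries, against 15.6 and 11.4 CPM in fibroblasts. Its log2 fold changes were 1.54 ± 0.26 and 1.52 ± 0.26 (edgeR adjusted p = 0.0556 and 0.0565), and the 4 libraries with activation vectors lay close together. The glycosylase Neil3 had 4.11 in early cells (0.0839) and the repair scaffold Xrcc1 0.87 in late cells (0.0833). In late against early cells Cxxc4 (2.002) and Polb (0.59) had the smallest p (0.528 and 0.587). Methyl-CpG readers had no called gene among 10 either, with 6 fitted values above fibroblasts and 4 below at both stages. Zbtb38, a zinc-finger reader, was at 116 and 139 CPM in early cells against 71.9 and 68.6 CPM in fibroblasts (0.86 ± 0.20, adjusted p = 0.0761), and at 77.9 and 70.5 CPM in late cells. Mbd2 had -0.61 in late cells (0.118). In late against early cells Zbtb38 had -0.78 (0.377) and Zbtb33 -0.52 (0.534).

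RNA of genes in the metabolism of methyl donors and of the TET cosubstrate was read from a further pair of lists. The supply of these metabolites was not measured. Of 13 tested genes of methyl donor synthesis, 7 were above and 6 below fibroblasts at each stage and 0 passed. Over all genes, 1.53% passed in early cells and 1.42% in late cells. Ahcyl2, which had the smallest p of the list in early cells, was at 33.0 and 25.1 CPM there and 53.5 and 58.9 CPM in fibroblasts (log2 fold change -0.95 ± 0.24, edgeR adjusted p = 0.0814). Ahcy, which clears the by-product of methylation, was at 219 and 104 CPM in the early libraries against 59.6 and 57.0 CPM in fibroblasts (log2 fold change 1.47 ± 0.39, edgeR adjusted p = 0.0860). Ahcyl1, a related protein without that role, was at 192 and 165 CPM in late libraries against 292 and 354 CPM in fibroblasts (-0.86 ± 0.23, adjusted p = 0.0836). Shmt2, of one-carbon metabolism, had 0.93 in late cells (0.0998). In late against early cells Mtr (0.88) and Ahcyl1 (-0.31) had the smallest p (0.659 and 0.686). All 11 genes of 2-oxoglutarate metabolism had fitted values above fibroblasts in late cells, with 0 called and a median of 1.53. Late replicate 2 held them at a sum of 5823 CPM and late replicate 1 at 1259 CPM, while the fibroblast libraries held 1250 and 1259 CPM. The high value stood in the library rich in heart muscle transcripts, whose part in it was not tested. Idh2, a mitochondrial enzyme that makes 2-oxoglutarate, was at 145 and 885 CPM in late libraries against 45.02 and 50.8 CPM in fibroblasts (adjusted p = 0.0796), and Idh3g had 1.53 in late cells (0.152). In early cells Idh1 had 0.52 (0.171) and Idh2 1.64 (0.235). In late against early cells Sdhb had 2.29 (0.490) and Idh1 -0.49 (0.517).

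Germline genes known to be silenced by promoter methylation were mostly at or near 0, and only 6 of 18 could be tested, with 2 above and 3 below fibroblasts in early cells and 3 above and 3 below in late cells. The 18 genes summed to 11.1 and 19.5 CPM in fibroblast libraries, 2.67 and 4.68 CPM in early ones and 7.21 and 35.6 CPM in late ones. The highest sum stood in the library rich in heart muscle transcripts, whose part in it was not tested. Ddx4, an RNA helicase of germ cells, fell in early cells, to 0.0891 and 0.0473 CPM against 5.74 and 15.0 CPM in fibroblasts (log2 fold change -7.15 ± 0.89, edgeR adjusted p = 0.0411). Over the early group it had 3 counts, and the ratio of fibroblast to early CPM was 155 (95% exact interval 52.9 to 755, counting error only). The call was lost without either fibroblast library (adjusted p = 0.198 and 0.234), without early replicate 1 (0.131) and without early replicate 2 (0.0788). The leukocyte markers, also highest in fibroblast libraries, were not tested for a part in it. In late cells it was at 0.292 and 0.225 CPM (-5.31 ± 0.78, adjusted p = 0.0509), and late against early cells gave 1.84 (0.538). Sycp1, of the meiotic synaptonemal complex, had no counts in the early and late libraries and 1.88 and 1.41 CPM in fibroblasts, so fibroblasts were at least 23.7-fold higher than early cells and 32.4-fold higher than late cells, with 3 counts over the group as the floor (adjusted p = 0.0664 and 0.0628). Tex19.1, a germ cell and placenta gene, had the opposite pattern. It was at 2.88 and 1.24 CPM in late libraries and had no counts in the 4 others, at least 40.3-fold higher than fibroblasts and 27.5-fold higher than early cells on the same floor (adjusted p = 0.0687 and 0.373). Dnmt3c, a germline relative of Dnmt3b, had at most 0.0562 CPM in any library. DNA methylation itself was not measured in these libraries.

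**Figure D4:**
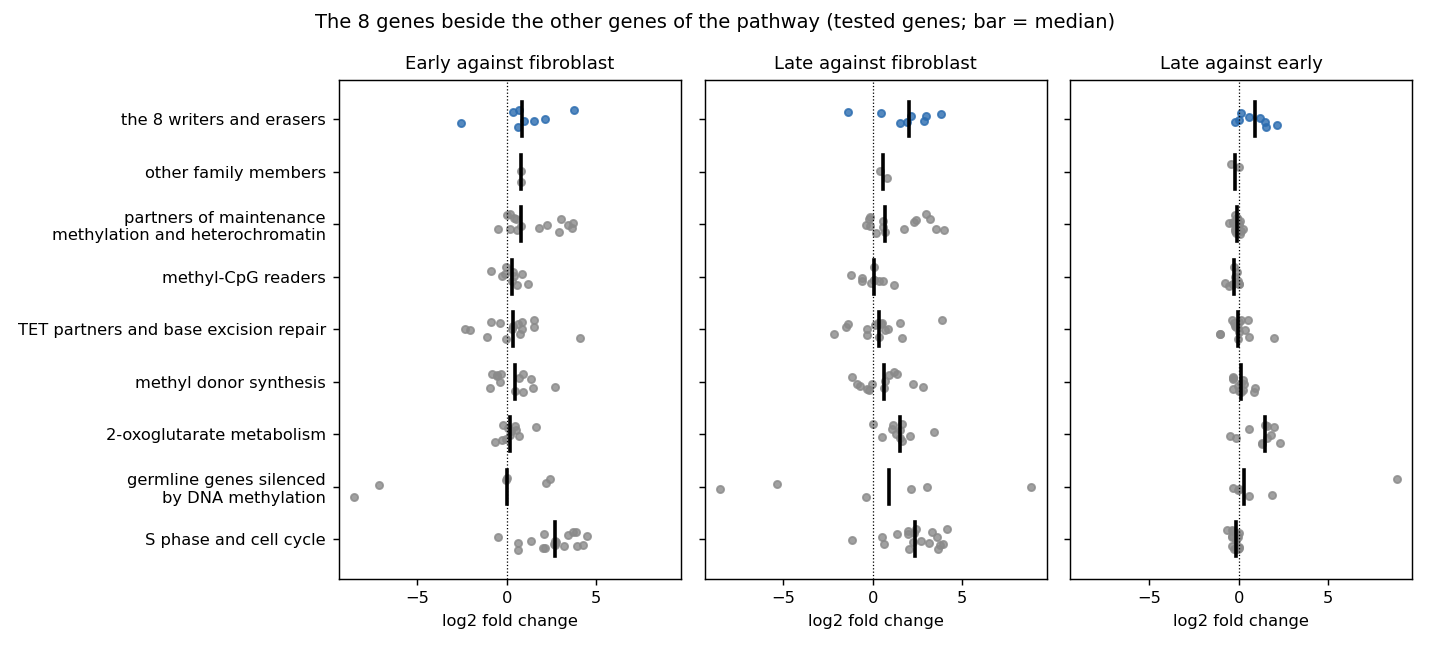
Log2 fold change of every tested gene of the 8 genes and of 8 lists of the pathway in the 3 comparisons, each point a gene and each bar the median of its row; vertical scatter within a row only separates the points. The 18 S phase genes have a median of 2.69 in early cells, and in late against early cells the medians of the 8 genes and of 2-oxoglutarate metabolism, 0.89 and 1.46, stand to the right of the other rows.

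The related genes Uhrf2 and Trdmt1 were also measured. Uhrf2, a paralog of Uhrf1, was at 188 and 109 CPM in early libraries and 126 and 98.3 CPM in late libraries, against 86.7 and 83.0 CPM in fibroblasts (log2 fold changes 0.80 ± 0.32 and 0.40 ± 0.32, edgeR adjusted p = 0.169 and 0.408). Trdmt1, which methylates transfer RNA, had log2 fold changes of 0.79 ± 0.45 in early cells and 0.79 ± 0.45 in late cells (0.289 and 0.267).

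As a description, the genes whose log2 CPM followed each member most closely over the 6 libraries were looked up among some 9543 expressed genes. Uhrf1 was closest to Wdhd1, a replication fork protein, and to Nsd2 and Pbk, with Pearson coefficients from 0.998 to 0.9997. Dnmt1 was closest to Cstf2, C2cd3 and Zfp217 (0.998 to 0.999), and Dnmt3a to Mark2, Jarid2 and Zfp592 (0.979 to 0.983). Dnmt3b was closest to Ttc23, Dtd1 and Pfdn5 (0.984 to 0.989), and Dnmt3l to S100pbp, Natd1 and Hscb (0.985 to 0.989). Tet1 and Tet3 shared Dhx35 as their closest gene (0.991 and 0.994), followed by Zfp970 and Pkdcc for Tet1 (0.985 and 0.983) and by Zfp512 and Taf1a for Tet3 (0.994 and 0.993). Tet2 was closest to Urgcp, Tsfm and Nav2 (0.979 to 0.996). The 6 points share their groups and their libraries, and among so many candidates high coefficients are easily met.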

How the data were processed

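Per the labels' protocols, a PureLink kit was used for the RNA, and libraries followed poly(A) selection. The authors deposited raw, unscaled read counts for each Ensembl gene; Trimmomatic 0.36, STAR 2.5.2b, featureCounts, Subread 1.5.2 and GRCm38 stand in the submitters' processing notes, without strand setting or rule for multimapping reads. Fibroblast columns carry sample titles. Columns named cTTF and ciCPC were read as early and late from the labels' descriptions, without using order or values; were that wrong, early and late would change places. Symbols, positions and merged exon lengths came from GENCODE M21.

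The count test was that of edgeR 4.0.16 in R 4.3.3 (default expression filter, TMM, robust quasi-likelihood fit of 3 group means over 6 libraries, 3 residual degrees of freedom, no block; common biological coefficient of variation 48.6%). P-values were Benjamini-Hochberg adjusted over 16688 genes. Standard errors are the fold change over the root of F. CPM uses effective library sizes; log2 CPM has a prior count of 2. Alternatives were DESeq2 1.42.0, its size factors, no filter, a replicate block and leaving out each library. Floors cover counting error only.

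The members and lists were chosen with earlier results of these data known. Named genes are the 8 members, called genes of the pathway lists, the 2 of a list with the smallest p in each comparison without calls, and the 3 most alike genes with a mean log2 CPM of at least 3. A gene this rule names is not reported here. Marker lists are given by sums and medians. Lig1, Dnmt3c and Lum, and Cdca7, E2f1, Sycp1 and Tex19.1 in some comparisons, fall outside this rule and were chosen after their values were seen.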

Additional observations from a re-analysis of the deposited data

How the results depend on the processing

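With 2 libraries per group the calls depended on the settings. Of the 8 genes, edgeR called 0 in each comparison with the size factors of DESeq2. Without the filter on low counts it called 1, 4 and 1 (early against fibroblast, late against fibroblast, late against early). It then also called 2337, 2495 and 276 of all 31952 genes. DESeq2 called 3, 6 and 2, against 22.5%, 26.0% and 6.55% of the genes it tested. Leaving out 1 library at a time gave 0 to 2, 0 to 2 and 0 to 1; the lone library of a group was then assumed to vary like the others. Over all genes, the 255, 237 and 0 calls became 277, 256 and 0 with the other size factors, 2337, 2495 and 276 without the filter, 4067, 4710 and 1108 with DESeq2, and 0 to 823, 0 to 1058 and 0 to 602 on leaving out a library, with none against fibroblasts when either fibroblast library was left out. Replicate numbers are shared between groups but the labels do not pair them, and same-numbered libraries correlated at 0.121, 0.238 and 0.0859 in their deviations. With a replicate block 26, 9 and 0 genes and 0, 0 and 0 of the 8 were called. Zfp57 and Ddx4 then missed the threshold (adjusted p = 0.0694 and 0.0731). Of the fold changes of the 8 genes, 130 kept direction and side of the threshold on leaving out a library, 9 newly passed and 5 turned; under the other settings 79 stayed, 17 newly passed and 0 turned. Those that turned were all in late against early cells. Dnmt1 was at 0.71 without early replicate 1, with a range of -0.86 to 0.71 over libraries left out. Uhrf1 was at -0.80 without early replicate 2 and -0.23 without late replicate 1 (range -0.80 to 1.83), and Tet2 at -0.16 without early replicate 2 and -0.33 without late replicate 2 (range -0.33 to 0.36). The cause was not tested. Depth limits Dnmt3l most, with 2 to 46 reads per library.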
